A study of Mus musculus with 10 samples.

Results

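The genes described here encode 9 pore-forming potassium channel subunits and 1 auxiliary subunit of atrial heart muscle: Kcnj2, Kcnj3, Kcnj5, Kcna5, Kcnd2, Kcnq1, Kcnh2, Kcnk3, Kcnn2 and the auxiliary Kcnip2. They were chosen by name and found through their Ensembl identifiers. All 10 were among the 37583 gene rows counted in each of 10 left atrial libraries, and all 10 were among the 15364 genes with enough counts to be tested. The smallest count of any of them was 112 reads, for Kcna5 in CTL3, and the largest was 21828 reads, for Kcnk3 in CTL1.

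The libraries were made from polyadenylated RNA of whole left atria of adult mice. Vehicle-treated mice (CTL) and mice treated with ibrutinib (IBR), a Bruton's tyrosine kinase inhibitor used in B cell cancers that can provoke atrial fibrillation, gave 3 libraries each. Wild-type untreated mice (WT) and mice labelled cardiac CSK KO (KO) gave 2 libraries each, named by the numbers in their titles (WT35, WT338, KO26 and KO337). Csk encodes the kinase that restrains Src family kinases. The sources used here do not give the dose or length of treatment, the strain, the exact age or the driver of the cardiac knockout. Nothing states that each library came from a separate animal, so the p-values measure the spread between libraries only.

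Potassium currents repolarise the atrial action potential and set the resting potential. The inward rectifiers hold the resting potential, with the Kcnj3 and Kcnj5 products forming the channel that vagal acetylcholine opens through G protein subunits. The voltage-gated channels carry the transient outward, ultrarapid, rapid and slow delayed rectifier currents, and the two-pore and calcium-activated channels add leak and calcium-linked currents. Shortened atrial repolarisation favours re-entry, which is why these genes are followed in atrial fibrillation.

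Of the members, 7 had an entry in a RefSeq promoter table of mouse build GRCm38.p6, and Kcnq1, Kcnk3 and Kcnn2 had none. The promoter stretches of both partner pairs are shown because the pairs are compared below: Kcnj3 and Kcnj5 form one channel, and Kcnip2 assists the channel made by Kcnd2. Each holds bases 250 to 11 before the annotated start, written 5′ to 3′ on the gene's own strand. They lie at chr2:55435720-55435959 (plus strand, Kcnj3), chr9:32344355-32344594 (minus strand, Kcnj5), chr6:21215096-21215335 (plus strand, Kcnd2) and chr19:45816074-45816313 (minus strand, Kcnip2). Capitals mark matches to GGGCGG (a GC box) or to AAGTG (the core bound by NKX2-5), searched on both strands, so that a match on the other strand appears as its reverse complement.
Kcnj3: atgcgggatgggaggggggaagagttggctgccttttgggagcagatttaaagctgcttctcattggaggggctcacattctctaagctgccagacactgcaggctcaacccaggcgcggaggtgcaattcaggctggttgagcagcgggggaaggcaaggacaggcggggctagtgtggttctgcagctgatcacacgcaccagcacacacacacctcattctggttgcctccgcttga
Kcnj5: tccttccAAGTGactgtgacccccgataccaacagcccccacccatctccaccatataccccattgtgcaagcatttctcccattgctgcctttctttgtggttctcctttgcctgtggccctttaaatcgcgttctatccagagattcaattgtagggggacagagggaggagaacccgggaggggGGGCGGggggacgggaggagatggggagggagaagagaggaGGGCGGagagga
Kcnd2: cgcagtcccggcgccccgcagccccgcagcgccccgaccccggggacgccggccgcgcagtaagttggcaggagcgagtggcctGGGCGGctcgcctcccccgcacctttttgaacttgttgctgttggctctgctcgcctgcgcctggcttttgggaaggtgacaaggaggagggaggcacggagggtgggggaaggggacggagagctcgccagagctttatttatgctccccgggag
Kcnip2: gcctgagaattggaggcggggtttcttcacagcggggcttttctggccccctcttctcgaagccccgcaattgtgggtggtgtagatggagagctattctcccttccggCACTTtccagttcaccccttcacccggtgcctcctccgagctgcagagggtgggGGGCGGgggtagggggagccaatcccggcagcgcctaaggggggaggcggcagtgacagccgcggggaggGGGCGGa

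The Kcnj5 and Kcnip2 stretches each held 2 GC boxes and 1 AAGTG, the Kcnd2 stretch held 1 GC box, and the Kcnj3 stretch held neither. GGGCGG was present in 5 of the 7 members and in 31.3% of 32851 promoter stretches of the same length, and AAGTG in 2 of the 7 and in 39.5%. GATAA, the core of GATA factor sites, was in 1 of the 7 (Kcnj2) and in 22% of all, and TATAAA (12.1% of all), a MEF2 site (CTA, 4 further bases and TAG, 3.09%) and GGTGTGA (a T-box site, 3.22%) were in none of the 7. A match is a run of letters and not a site shown to be bound.

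Total counts on genes ran from 14907331 to 19960947 per library, and 3 counts correspond to 0.136 to 0.216 CPM (counts relative to the library's size, after scaling by the trimmed mean of M values, TMM). Csk itself stood at 18.2 and 17.8 CPM in the 2 WT libraries against 24.7 and 35.5 CPM in KO26 and KO337. The log2 difference was 0.74 (SE 0.18, adjusted p = 0.0608 by edgeR's quasi-likelihood test). Its counts thus do not follow the label, and the libraries are called labelled KO throughout. Counts per gene from whole atria include every cell type, so they cannot show whether heart muscle cells lost Csk. Defining markers of heart muscle and of atrial muscle were abundant in every library (summed at 31960.0 CPM or more and at 9163 CPM or more). The muscle troponin gene Tnnc1 was at or under 0.116 CPM in each, although Tnnt2 stood at 3015 CPM or more and Tnni3 at 960 CPM or more. Why the Tnnc1 row is nearly empty was not tested, and it is not read as a lack of its RNA. KO337 stood apart from KO26. Summed over 11 tested and 1 untested heart muscle markers, the level was 81943 and 77121 CPM in WT35 and WT338, 62135 CPM in KO26 and 31960.0 CPM in KO337, while 8 fibroblast markers summed to 5240, 4748, 5438 and 14488 CPM and 9 macrophage and monocyte markers to 468, 609, 818 and 3208 CPM in the same order. In whole tissue, fewer cells of a type and less RNA per cell cannot be told apart.

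Compared per kilobase of exon, the members spanned a wide range in the vehicle-treated atria. Kcnk3, which encodes the two-pore leak channel TASK-1, was highest at 278 ± 37.9 CPM per kilobase (SD, n = 3), above Kcnj3 at 184 ± 19.4. Kcnj5 (93.5 ± 10.2) and Kcnh2 (78.5 ± 8.48), the ERG channel of the rapid delayed rectifier, came next and overlapped each other. Kcnq1, the pore of the slow delayed rectifier, followed at 34.0 ± 7.08. Kcnd2 (10.98 ± 0.485), Kcnj2 (10.7 ± 2.23) and Kcnip2 (9.88 ± 3.15) could not be ordered within their spread, nor could Kcnn2 (3.73 ± 0.238) and Kcna5 (2.80 ± 0.629) at the bottom.

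In the wild-type untreated atria the order at the top differed. There Kcnj3 led at 199 ± 4.51 CPM per kilobase (SD, n = 2), then Kcnk3 (129 ± 7.20), Kcnj5 (84.0 ± 3.21), Kcnh2 (32.7 ± 0.689), Kcnq1 (18.1 ± 3.02) and Kcnd2 (13.3 ± 0.368). Kcna5 (5.96 ± 1.51) overlapped Kcnip2 (5.40 ± 0.337), and Kcnj2 (3.73 ± 1.28) and Kcnn2 (2.36 ± 0.183) were lowest. Neighbours not named as overlapping had no overlap between libraries within that group. With the length of the longest transcript in place of all exons, Kcnn2 was 7.56 CPM per kilobase in CTL, above Kcna5 without overlap. In WT it was then 4.78 and overlapped both Kcna5 and Kcnj2, with Kcnj2 lowest on average.

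**Figure D1:**
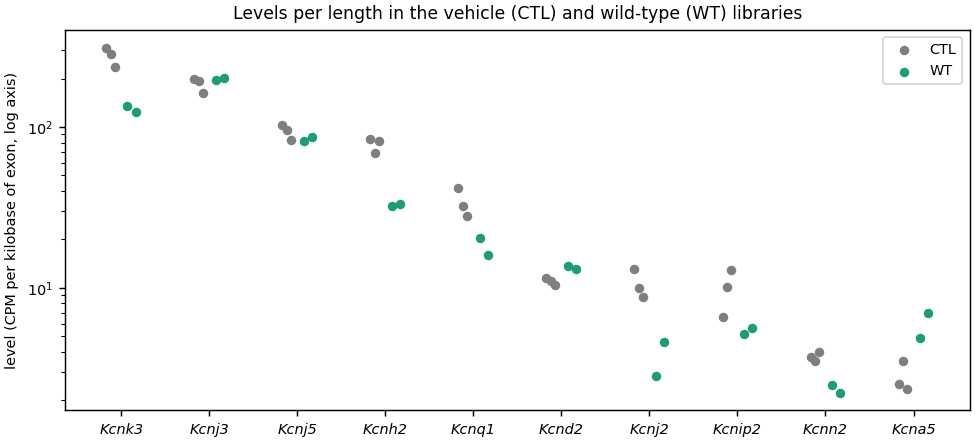
Level of each potassium channel gene in CPM per kilobase of exon (log axis), with 1 point per library, for the vehicle (CTL, 3 points) and wild-type (WT, 2 points) groups. Kcnk3 and Kcnj3 lie at the top and Kcnn2 and Kcna5 at the bottom of the CTL order.

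Whether ibrutinib was accompanied by altered channel transcripts is the first comparison. No member was called in IBR against CTL, where a gene is called at an adjusted p under 0.05 (edgeR's quasi-likelihood test, Benjamini-Hochberg over all tested genes). No gene of the whole table was called either, so the share called was 0% of 15364 genes. At an unadjusted p under 0.05 there were 0 members and 5.51% of all genes. The median log2 difference of the members was -0.14, with 4 positive and 6 negative differences (55.2% of all genes had a negative one), and that of all genes was -0.03.

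The inward rectifiers overlapped between drug and vehicle. Kcnj2, which encodes Kir2.1 of the resting inward rectifier current, stood at 71.6, 54.5 and 48.1 CPM in CTL1 to CTL3 and at 76.8, 57.0 and 43.6 CPM in IBR1 to IBR3. Both groups span nearly the same range, and the log2 difference was 0.03 (SE 0.34, adjusted p = 0.992). Kcnj3, the GIRK1 subunit of the acetylcholine-activated channel, stood at 1032, 1007 and 845 CPM in CTL and 948, 1136 and 943 CPM in IBR, and the highest and the lowest of these libraries were IBR2 and CTL3 (log2 difference 0.07, SE 0.32, adjusted p = 0.977). Kcnj5, the GIRK4 subunit, stood at 481, 447 and 386 CPM in CTL and 339, 415 and 401 CPM in IBR. IBR1 was the lowest of these 6, CTL1 and CTL2 were above every IBR library, and the log2 difference was -0.19 (SE 0.22, adjusted p = 0.89).

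Among the voltage-gated channels, Kcna5 and Kcnd2 were slightly higher on average with the drug and Kcnq1 and Kcnh2 slightly lower, none beyond the test. Kcna5, the Kv1.5 channel of the ultrarapid current, stood at 7.22, 10.1 and 6.76 CPM in CTL and 8.88, 7.92 and 12.6 CPM in IBR (log2 difference 0.29, SE 0.33, adjusted p = 0.886). Only IBR3 exceeded the CTL range. Kcnd2, the Kv4.2 channel of the transient outward current, stood at 58.9, 56.9 and 53.9 CPM in CTL and 56.7, 66.6 and 63.2 CPM in IBR (log2 difference 0.14, SE 0.28, adjusted p = 0.937). IBR1 lay inside the CTL range and the other two above it. Kcnip2, which encodes the KChIP2 protein that raises the surface density of Kv4 channels, varied within the vehicle group itself, at 22.9, 35.4 and 44.7 CPM, and all 3 IBR libraries (27.4, 29.4 and 31.5 CPM) lay inside that range (log2 difference -0.22, SE 0.21, adjusted p = 0.868).

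Kcnq1 stood at 171, 131 and 115 CPM in CTL and 126, 137 and 109 CPM in IBR, and its difference of -0.17 (log2, SE 0.23, adjusted p = 0.903) lay within the spread, with only CTL1 clear of the IBR range. Kcnh2 stood at 410.0, 333 and 397 CPM in CTL and 265, 346 and 293 CPM in IBR. Its unadjusted p of 0.0923 was the smallest among the members (log2 difference -0.34, SE 0.18, adjusted p = 0.823), and the groups overlapped through CTL2 and IBR2.

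Kcnk3 stood at 1241, 1134 and 944 CPM in CTL and 946, 1158 and 960.2 CPM in IBR (log2 difference -0.12, SE 0.26, adjusted p = 0.941), with nearly the same lowest value in both groups. Kcnn2, the SK2 channel opened by intracellular calcium, stood at 27.8, 26.1 and 29.6 CPM in CTL and 22.6, 25.5 and 22.9 CPM in IBR. It was the 1 member with every IBR library below every CTL library, a pattern that 7.53% of all tested genes showed (log2 difference -0.23, SE 0.22, adjusted p = 0.866).

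These data limit how large a drug effect on the members could be. The 95% intervals of the fold change ran from 0.6 at the lowest (Kcnh2 and Kcnj2) to 2.04 at the highest (Kcna5). With 3 libraries a group, fold changes inside a gene's interval remain compatible with the data, and the absence of a call does not show equal levels. All 8 fibroblast markers and all 9 macrophage and monocyte markers had positive differences in the same comparison (medians 0.72 and 0.48, none called). All 6 atrial muscle markers had negative differences (median -0.26, none called). Of the 11 tested heart muscle markers 7 were negative and 4 positive (median -0.14, none called). The part of any of these markers in the members' values was not tested.

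**Figure D2:**
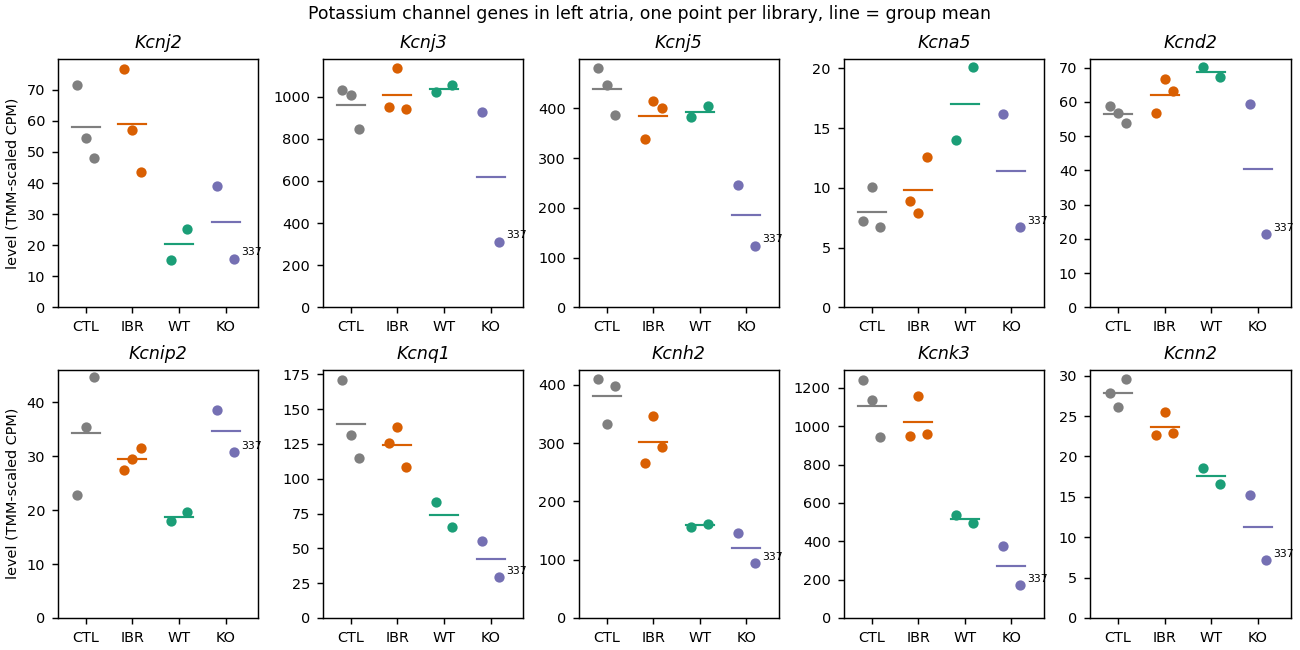
Level of each of the 10 genes in TMM-scaled CPM (axes from 0, 1 panel per gene), with 1 point per library, the group mean as a line and KO337 marked. CTL and IBR points interleave in every panel except Kcnn2, and KO337 is the lowest of the WT and KO points for every gene except Kcnj2, where WT35 is slightly lower, and Kcnip2.

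The second comparison sets the libraries labelled KO against WT, by label only. Levels of 8 members were lower on average in the libraries labelled KO (49.2% of all genes had a negative difference) and levels of Kcnj2 and Kcnip2 were higher, but no member was called (edgeR's quasi-likelihood test, Benjamini-Hochberg), against 2.21% of all tested genes. At an unadjusted p under 0.05 there were 5 members, against 25.7% of all genes: Kcnj5, Kcnk3, Kcnq1 and Kcnn2 were lower (12.4% of all genes) and Kcnip2 higher (13.3%). The median log2 difference of the members was -0.70 and that of all genes 0.01. In 7 members both libraries labelled KO lay below both WT libraries, which 26.9% of all genes showed, and in 1 member both lay above, which 26.3% showed.

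Among the inward rectifiers, both subunits of the acetylcholine-activated channel were below both WT libraries in KO26 and KO337, by little for Kcnj3 in KO26. Kcnj5 stood at 383 and 404 CPM in WT against 246 and 124 CPM in KO26 and KO337. Both libraries labelled KO lay below WT, at 62.5% and 31.6% of the WT mean, and the log2 difference of -1.09 (SE 0.28) had an unadjusted p of 0.00267 and an adjusted p of 0.0643. Kcnj3 stood at 1019.9 and 1053 CPM in WT against 924 and 312 CPM in KO26 and KO337. KO26 was thus at 89.2% and KO337 at 30.1% of the WT mean (log2 difference -0.75, SE 0.39, adjusted p = 0.251). Without KO337 the log2 difference was -0.70 for Kcnj5 and -0.18 for Kcnj3.

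Kcnj2 did not share that pattern. It stood at 15.4 and 25.2 CPM in WT against 39.0 and 15.7 CPM in KO26 and KO337, so KO26 was the highest of the 4 and KO337 lay within the WT range (log2 difference 0.43, SE 0.43, adjusted p = 0.56). Its direction depended on the library: 0.93 without KO337 and -0.38 without KO26.

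All 4 voltage-gated members had negative differences. Kcnq1 stood at 83.0 and 65.5 CPM in WT against 55.0 and 29.2 CPM in KO26 and KO337 (log2 difference -0.82, SE 0.29, adjusted p = 0.12), with both libraries labelled KO below WT. Kcnd2 stood at 70.1 and 67.4 CPM in WT against 59.4 and 21.3 CPM in KO26 and KO337 (log2 difference -0.77, SE 0.35, adjusted p = 0.199), so that KO26 was at 86.5% and KO337 at 31% of the WT mean. Kcnh2 was the least different of the 4 by fit, at 156 and 161 CPM in WT against 146 and 93.5 CPM in KO26 and KO337 (log2 difference -0.41, SE 0.22, adjusted p = 0.271). For Kcna5 the groups overlapped, at 14.0 and 20.1 CPM in WT against 16.2 and 6.70 CPM in KO26 and KO337 (log2 difference -0.58, SE 0.40, adjusted p = 0.381). Without KO337 the 4 log2 differences shrank to -0.45 for Kcnq1, -0.23 for Kcnd2, -0.14 for Kcnh2 and -0.09 for Kcna5.

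Kcnip2 was higher in both libraries labelled KO. It stood at 17.9 and 19.6 CPM in WT against 38.5 and 30.7 CPM in KO26 and KO337, which is 205% and 164% of the WT mean. The fitted difference was 0.88 on the log2 scale (SE 0.26, 1.84-fold), with an unadjusted p of 0.00683 and an adjusted p of 0.0885. It kept its sign without either library, at 1.02 without KO337 and 0.69 without KO26. Both levels lay inside the range of the vehicle-treated group, 22.9 to 44.7 CPM. That group belongs to a separate experiment, and all its libraries lay above both WT libraries.

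The leak and calcium-activated channels were lower in both libraries labelled KO. Kcnk3 stood at 534 and 494 CPM in WT against 374 and 171 CPM in KO26 and KO337 (log2 difference -0.92, SE 0.32, adjusted p = 0.115). Kcnn2 stood at 18.6 and 16.6 CPM in WT against 15.3 and 7.15 CPM in KO26 and KO337 (log2 difference -0.66, SE 0.28, adjusted p = 0.17). Without KO337 these were -0.48 and -0.23.

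Each negative difference was smaller in size without KO337, but those of Kcnj5 (-0.70), Kcnk3 (-0.48) and Kcnq1 (-0.45) stayed apart from the others (-0.23 to -0.09). Without it the members' median was -0.21, and without KO26, when KO337 stands alone and is assumed to vary like the other groups, the median was -1.36 and 8 members were called, as were 24.3% of all genes. DESeq2 with all libraries called Kcnj5, Kcnk3 and Kcnip2 (11.9% of all genes). The heart muscle markers lay lower as well: all 11 tested had negative differences (median -0.90, 7 at an unadjusted p under 0.05, none called), as had 5 of 6 atrial muscle markers (median -0.89). All 8 fibroblast markers had positive differences (median 1.09, none called) and so had all 9 macrophage and monocyte markers (median 2.09, 2 called higher). Their part in the members' differences was not tested.

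**Figure D3:**
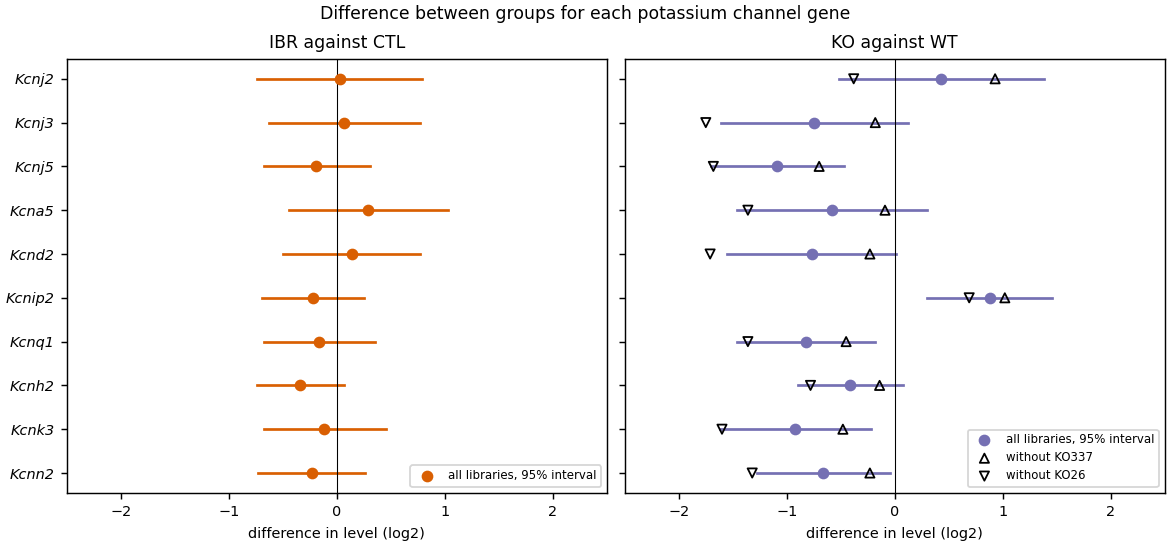
Log2 difference in level for each gene, IBR against CTL (left) and KO against WT (right), with the 95% interval from the fit as a line; triangles give the KO against WT value without KO337 (up) or without KO26 (down). Every IBR interval crosses 0, and without KO337 most KO against WT values lie closer to 0 while Kcnip2 stays at 1.02.

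Set against the mean log2 level of the 11 heart muscle markers of the same library, most members of the libraries labelled KO lay close to WT. Relative to muscle, KO26 and KO337 differed from the WT mean by -0.26 and -0.21 for Kcnj5 (log2), by 0.26 and -0.28 for Kcnj3, by 0.21 and -0.22 for Kcnd2, by 0 and 0.13 for Kcnq1, by -0.04 and -0.13 for Kcnk3 and by 0.22 and 0.21 for Kcnn2. Kcna5 differed by 0.37 and 0.19. Kcnh2 was somewhat higher in both, by 0.30 and 0.69. Kcnip2 (1.44 and 2.15) and Kcnj2 (1.39 and 1.13) lay furthest above WT, and with libraries scaled to the muscle markers in the fit both were called (log2 differences 1.85 and 1.21, adjusted p = 0.0217 and 0.0254), as were 54.3% of all genes. That scaling moved the median of all genes to 1.02, so the members' median of 0.12 then lay 0.90 below it, and of the members only Kcnip2 and Kcnj2 lay above that median. With it the sign of the KO against WT difference turned positive for Kcnq1 (0.05), Kcnj3 (0.01), Kcnh2 (0.50), Kcna5 (0.22) and Kcnn2 (0.18) and was 0 for Kcnd2.

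**Figure D4:**
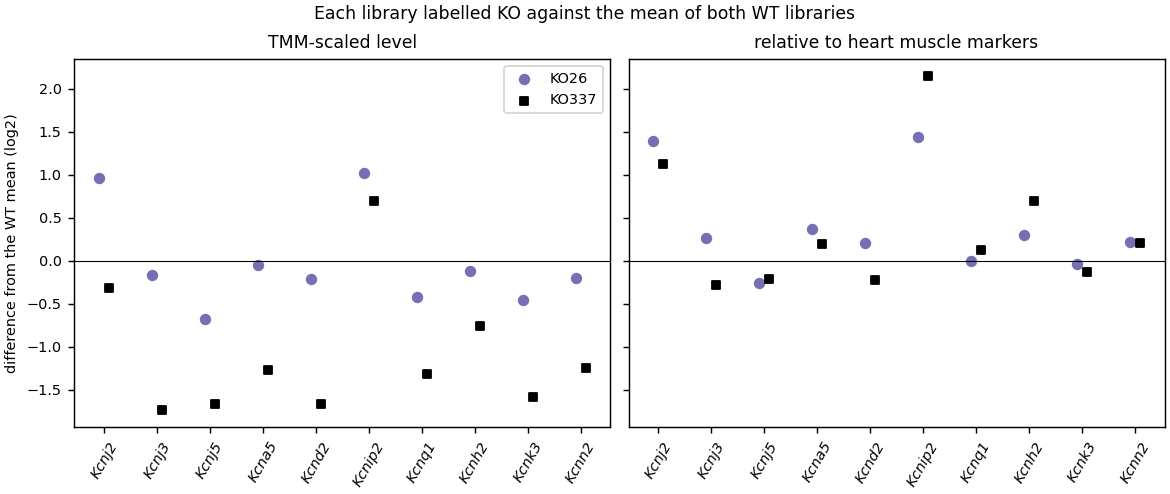
Each library labelled KO against the mean of both WT libraries (log2), for TMM-scaled levels (left) and for levels relative to the mean of 11 heart muscle markers of the same library (right). On the right KO26 and KO337 lie near 0 for most genes, and Kcnip2 and Kcnj2 lie above 1 in both.

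Both differences were also compared with each other, as IBR against CTL minus labelled KO against WT. No member was called in that test, against 0.026% of all genes, and 2 members had an unadjusted p under 0.05, against 9.78%. These were Kcnip2 (-1.10 on the log2 scale, 95% interval -1.85 to -0.36, adjusted p = 0.386) and Kcnj5 (0.90, interval 0.11 to 1.69, adjusted p = 0.463).

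Partner ratios within a library do not depend on its scaling. Kcnip2 over Kcnd2, per kilobase of exon, was 0.379 and 0.431 in WT35 and WT338 and 0.96 and 2.14 in KO26 and KO337. Both libraries labelled KO lay above both WT libraries, by 3.54-fold on average (log2 difference 1.82), with an exact two-sided permutation p of 0.333, the smallest that 2 against 2 libraries allow. The log2 difference was 1.25 without KO337 and 2.40 without KO26. In CTL the ratio was 0.575, 0.923 and 1.23 and in IBR 0.718, 0.654 and 0.74, all 3 of the latter inside the CTL range (exact permutation p = 0.4).

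Kcnj3 over Kcnj5 was 1.93, 2.03 and 1.97 in CTL and 2.52, 2.46 and 2.11 in IBR. The groups did not overlap (log2 difference 0.26), and the exact two-sided permutation p of 0.1 is the smallest that 3 against 3 libraries allow. In WT it was 2.39 and 2.34, and in KO26 and KO337 3.38 and 2.26, on either side of WT (log2 difference 0.22, exact permutation p = 1). The WT values lay inside the IBR range, but these groups come from separate experiments and were not tested against each other.

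Kcnj2 over Kcnj12, the genes of Kir2.1 and Kir2.2, which share the resting inward rectifier, was 0.244 and 0.301 in WT and 0.706 and 0.472 in KO26 and KO337, a 2.13-fold difference without overlap (exact permutation p = 0.333, the smallest possible). In CTL it was 0.399, 0.266 and 0.344 and in IBR 0.588, 0.382 and 0.315 (exact permutation p = 0.5). Kcnq1 over Kcne1, its auxiliary subunit gene, could not be read well because Kcne1 stood at 0.185 to 0.939 CPM (log2 difference 0.27 for IBR, exact permutation p = 0.7, and -0.77 for KO, exact permutation p = 0.667). These were 8 exact tests, and none could have passed after adjustment.

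**Figure D5:**
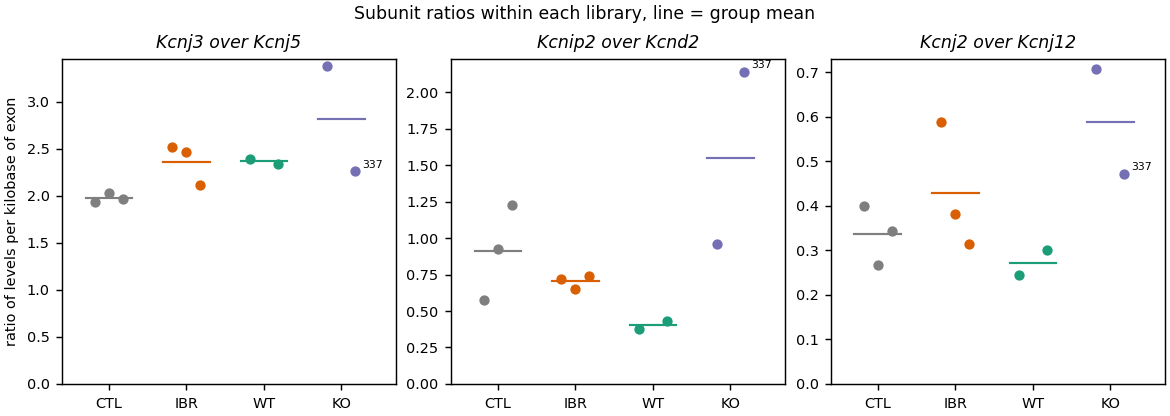
Ratio of levels per kilobase of exon within each library for Kcnj3 over Kcnj5, Kcnip2 over Kcnd2 and Kcnj2 over Kcnj12 (axes from 0), with 1 point per library, the group mean as a line and KO337 marked. KO26 and KO337 lie above both WT libraries for Kcnip2 over Kcnd2 and for Kcnj2 over Kcnj12, and on either side of them for Kcnj3 over Kcnj5.

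Among the other 87 Kcn genes of the files, 43 were tested. None was called in IBR against CTL or had an unadjusted p under 0.05 there (edgeR), with 22 positive and 21 negative differences. In KO against WT 1 rose (1.31% of all genes) and 1 fell (0.898%), with 17 positive and 26 negative differences and 14 at an unadjusted p under 0.05 (25.7% of all genes). Kcnn4, the intermediate-conductance calcium-activated channel known from immune cells, rose from 0.297 and 0.314 CPM in WT to 1.97 and 10.0 CPM in KO26 and KO337 (log2 difference 4.27, SE 0.73, adjusted p = 0.031). Its WT values rest on few reads, KO337 also has the highest macrophage markers, whose part was not tested, and without KO337 the log2 difference was 2.65 and not called (adjusted p = 0.1). Kcna1, the Kv1.1 channel, fell from 20.6 and 18.3 CPM in WT to 5.68 and 4.61 CPM (log2 difference -1.92, SE 0.37, adjusted p = 0.0368). Both libraries labelled KO lay close together, and the log2 difference without KO337 was -1.79 but not called. Their levels were close to those of CTL, 4.66 to 7.78 CPM, a group from a separate experiment that itself lay below WT. Leaving out 1 library at a time, Kcna1 was not called in 7 of 10 fits, which include those without WT35 (adjusted p = 0.173) or WT338 (0.146), and Kcnn4 was not called in 4 of 10, which include those without WT35 (0.178) or WT338 (0.156). Scaled to the muscle markers, Kcna1 was not called (-0.95, adjusted p = 0.0807) and Kcnn4 was (5.58, adjusted p = 0.0205).

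By family, 15 of 19 other voltage-gated and silent subunit genes had negative differences in KO against WT (median -0.64, 1 called lower), including Kcnv2, a silent subunit, at 27.3 and 21.4 CPM in WT against 10.6 and 3.39 CPM in KO26 and KO337 (log2 difference -1.81, adjusted p = 0.0641). Of 8 other auxiliary subunit genes 5 had positive differences (median 0.48), and of 4 inward rectifier genes 2 (median 0.88). Of 5 two-pore genes 3 were positive (median 0.45) and of 5 calcium- or sodium-activated genes 2 (median -0.18). The inward rectifier genes Kcnj10 (1.99) and Kcnj15 (3.13) were higher but stood at 2.32 CPM or less in WT, while Kcnj12 (-0.73) and Kcnj8 (-0.23) were lower. Several other Kcn genes were abundant: in CTL, Kcng2 reached 47.5 CPM per kilobase, between Kcnh2 and Kcnq1, Kcnj12 reached 32.1 and Kcna7 11.2. The highest of the other calcium- or sodium-activated, auxiliary and two-pore genes were Kcnn1 (5.10), Kcnip3 (0.543) and Kcnk6 (1.17). In the drug comparison the smallest p among the other Kcn genes belonged to Kcnk4, Kcnt2 and Kcna6. Their log2 differences were -1.32, 0.52 and 0.96, each with an adjusted p of 0.823 (edgeR). Kcnk4 stood at 0.0611 to 0.936 CPM and Kcna6 at 0.36 to 2.69 CPM in CTL and IBR, so both differences rest partly on few reads.

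Of 30 genes of channel partners, 28 were tested and none was called in either comparison. The auxiliary subunit genes Dpp6 and Dpp10 were at most 0.36 and 0.72 CPM. Chrm2, the muscarinic receptor upstream of the Kcnj3 and Kcnj5 channel, stood at 706 and 743 CPM in WT against 544 and 275 CPM in KO26 and KO337 (log2 difference -0.82, adjusted p = 0.117). Its drug difference was -0.01. The 10 genes of the acetylcholine and adenosine pathway had 6 positive and 4 negative differences in KO against WT (median 0.12), with Gnb5, a G protein beta subunit, at -0.59 (adjusted p = 0.0888) and Gnao1 at -0.54 (adjusted p = 0.13). Of the 9 tested subunit and scaffold genes (median -0.09), Ank2, an ankyrin scaffold, differed by -0.95 (adjusted p = 0.0726) and Cav3, caveolin of muscle, by -0.82 (adjusted p = 0.081). In IBR against CTL, Abcc9, the sulfonylurea receptor subunit SUR2, stood at 30.76, 25.996 and 34.99 CPM in CTL and 49.6, 36.4 and 50.8 CPM in IBR (log2 difference 0.57, unadjusted p = 0.00473, adjusted p = 0.823). It was the only one of the 28 tested partners with an unadjusted p under 0.05 there, against 5.51% of all genes.

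Over all 10 libraries, with log2 levels centred per gene, each member was compared with 11860 other genes by the root mean square difference, as a description of profiles that share library and depth. Kcnj5 lay near Tmod1 (0.084), a sarcomere gene, Kcnd2 nearest Hook1 and Ryr2 (0.098 each), the latter the calcium release channel, Kcnk3 nearest Rtn2 (0.076) and Ldhb (0.081), and Kcnn2 nearest the citrate synthase gene Cs and Lrrc20 (0.077 each). Kcnj3 lay nearest Klhl23 (0.127) and Baiap2l2 (0.129), Kcnq1 nearest Dhrs11 (0.112) and Rab3a (0.125), and Kcnh2 nearest Slc41a1 (0.124) and Atg9a (0.13). For Kcnj2 (Axin2, 0.215, and Nrxn2, 0.275), Kcna5 (Pde7a, 0.227, and Ntm, 0.269) and Kcnip2 (Uevld, 0.227, and Mn1, 0.231) no gene came as close. Among the members themselves the closest pairs were Kcnj3 with Kcnd2 (0.101), Kcnq1 with Kcnk3 (0.186) and Kcnj3 with Kcnj5 (0.224), while Kcnip2 was at least 0.658 from every other member.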

How the data were processed

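The deposited values were raw read counts per gene in 1 file per library. Per the submitters' processing notes STAR, HTSeq, edgeR and build mm9 were used, with versions and annotation not given in the sources used here. The kit was directional per the labels' protocols, but the authors' counts ignored strand, as the names of the deposited files say, so antisense reads add to a gene. In GENCODE vM21 opposite-strand transcripts cover 31.1% of Kcnj3, 5.76% of Kcnk3 and 2.96% of Kcnq1 exon bases, and a pair of them cover 4.33% and 3.8% of Kcnn2. Of these only the one at Kcnk3 has its own row (2.4 to 12.8 CPM). Symbols and exon lengths came from vM21 (32860 identifiers matched).

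The 5 rows of unassigned reads stayed out: 13.5% to 19.9% of records in no feature, 11.8% to 27.4% not unique, 3.14% to 3.99% ambiguous. With edgeR 4.0.16 in R 4.3.3, genes passed filterByExpr (minimum count 10, minimum total 15), TMM factors ran from 0.87 to 1.23, and 1 quasi-likelihood fit held 4 group means (6 residual degrees of freedom). The common coefficient of variation was 0.221, and 0.167 in CTL and IBR and 0.291 in WT and KO alone, so the shared spread favours calls in KO against WT. SE is the log2 difference over the square root of F. P-values were adjusted by Benjamini-Hochberg over 15364 genes. Replicate libraries differed beyond sampling noise in every group. Ratios were compared by exact permutation. The fit was tested on simulated counts. DESeq2 1.42.0, limma 3.58.1 (voom), other scalings, no filter, fewer libraries and leaving out each library were the alternatives.

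Members and gene lists were chosen with earlier results of these data known. Named are all members, called Kcn and partner genes, the highest per family, the smallest p-values and the 2 nearest profiles per member. A few genes that this rule takes are not reported here, and stay in all counts.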

Additional observations from a re-analysis of the deposited data

How the results depend on the processing

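Counts of called genes below are read against the share of all tested genes called in the same fit. In KO against WT it was 2.21% in the fit used above, 11.9% by DESeq2, 54.3% scaled by muscle markers and 4.68% with no filter. In the difference of effects it was 0.026%, 0.911% by DESeq2 and 0.343% with no filter. With no filter 24494 genes were tested, against 15364 in these other fits. The KO against WT share without KO26 is given above. None of the alternatives called a member in IBR against CTL. The number of genes called there was 2 with DESeq2 and 2 with no filter on low counts, and 0 to 0 when each library was left out. In KO against WT, 339 genes were called, with 1830 by DESeq2, 8338 scaled by muscle markers, 1146 with no filter, 0 from the WT and KO libraries alone and 14 to 3934 when each library was left out. The share of higher genes among those called was 59.3%, but 81.7% by total counts, 99.2% scaled by muscle markers, 40.8% with no filter, 49.2% by DESeq2, 7.14% of the 14 genes without WT35 and 9.52% without WT338. Members called in KO against WT were 3 by DESeq2 (Kcnip2, Kcnj5 and Kcnk3, adjusted p = 0.0308, 0.00331 and 0.0313), 3 with no filter (the same 3 genes, 0.0437, 0.00564 and 0.0383), 2 scaled by muscle markers and 0 to 8 when each library was left out, with 8 only without KO26. Other Kcn genes called were 7 by DESeq2, 11 scaled by muscle markers, 4 with no filter, 0 from WT and KO alone and 0 to 16 when each library was left out (0 to 0 in IBR against CTL). The difference of effects called 4 genes, with 140 by DESeq2, 84 with no filter, 0 by total counts, upper quartile, muscle markers or voom and 0 to 1564 when each library was left out, and 0 to 7 members (7 without KO26). Signs turned, scaled by muscle markers, for the KO against WT difference of Kcnq1 (0.05), Kcnj3 (0.01), Kcnh2 (0.50), Kcna5 (0.22), Kcnn2 (0.18) and Kcnd2 (0), for Kcnk3 under the drug (0.01) and for the difference of effects of Kcnq1 (-0.09), Kcnh2 (-0.73) and Kcnn2 (-0.30), and by total counts for that of Kcnh2 (-0.07). The cause was not tested. Leaving out each library turned the drug difference of Kcnip2 (-0.45 to 0.02), Kcnj2 (-0.21 to 0.20), Kcnj3 (-0.02 to 0.12) and Kcnq1 (-0.29 to 0.01), the KO against WT difference of Kcnj2 (-0.38 to 0.93) and the difference of effects of Kcnh2 (-0.17 to 0.44) and Kcnj2 (-0.88 to 0.41). The log2 ratios then ranged from 1.25 to 2.40 in KO and -0.60 to -0.05 in IBR for Kcnip2 over Kcnd2, from -0.07 to 0.51 and 0.21 to 0.34 for Kcnj3 over Kcnj5, from 0.80 to 1.38 and 0.06 to 0.51 for Kcnj2 over Kcnj12, and from -1.59 to 0.05 and -0.19 to 0.61 for Kcnq1 over Kcne1. With a replicate block on numbers 1 to 3, 0 genes were called in IBR against CTL (905 at an unadjusted p under 0.05) and the members' median was -0.13. The deviations of same-numbered libraries correlated by 0.016, 0.162 and 0.032, and those of unlike numbers by -0.197 to 0.182. With 3 libraries a group these values neither show nor exclude a pairing by number, and WT and KO share no number. A block chosen after seeing the data joins WT35 with KO26 and WT338 with KO337 only because their numbers are close (no label describes this). With it 1403 genes (9.13% of those tested), 3 members (Kcnq1, Kcnj5 and Kcnk3, adjusted p = 0.0345, 0.0227 and 0.0355) and 7 other Kcn genes were called in KO against WT. The libraries so joined deviated together by a correlation of 0.177, a value that with 2 libraries a group cannot show whether they pair. By longest transcript in place of all exons, Kcnh2 stood at 90.1 CPM per kilobase in CTL and 37.6 in WT, Kcnq1 at 46.0 and 24.5, Kcnn2 at 7.56 and 4.78, and Kcnip2 at 6.03 in WT.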

Other observations

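The vehicle-treated and wild-type untreated libraries come from separate experiments, and the sources used here do not say how their handling differed, so their levels are set side by side with no test. Kcnj2 stood in WT at 34.9% of its CTL mean, Kcnh2 at 41.7%, Kcnk3 at 46.5%, Kcnq1 at 53.3%, Kcnip2 at 54.7% and Kcnn2 at 63.3%, in each case with no overlap between libraries. Kcna5 (213%) and Kcnd2 (122%) were higher in WT, also without overlap. The share of all tested genes that separate WT from CTL in this way was not counted. The separation therefore cannot be read as particular to the members. The subunits of the acetylcholine-activated channel were the members whose ranges overlapped, with Kcnj3 at 108% and Kcnj5 at 89.8%. The gaps between WT and CTL were 2.86-fold for Kcnj2, 2.40-fold for Kcnh2, 2.15-fold for Kcnk3 and 2.13-fold for Kcna5. Those of Kcnq1 (1.87-fold), Kcnip2 (1.83-fold) and Kcnn2 (1.58-fold) followed. Each of these is larger than any fitted fold of a member between drug and vehicle, at most 1.26 (Kcnh2), and that of Kcnd2 (1.22-fold) is not.

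Transcription factors known for atrial identity and for control of channel genes were measured too, and none of the 9 was called in either comparison. Tbx5, a T-box activator, stood at 637, 455 and 460 CPM in CTL, 368, 543 and 523 CPM in IBR, 293 and 284 CPM in WT, 277 CPM in KO26 and 174 CPM in KO337. Gata4 differed by -0.09 and Mef2c by 0.09 in KO against WT (log2), with KO26 above the WT mean in both. Irx5, known as a repressor of Kcnd2 in the ventricle, stood at 2.44 CPM or less in every library, and its relative Irx3 at 4.93 CPM or less.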
